A study of Homo sapiens with 9 samples.

Results

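Zinc finger genes with a plain number for a name were followed in LIM1215 cells, a human colorectal cancer line that is sensitive to cetuximab, an antibody against the epidermal growth factor receptor (EGFR). Polyadenylated RNA was sequenced from LIM1215-parental cells, kept without the antibody, and from the cetuximab-resistant lines LIM1215-R1 and LIM1215-R2, which were selected separately under rising cetuximab. Each line had 3 libraries from untreated basal cultures. The resistant lines were mixed and not clonal, and both derive from LIM1215 cells. Per the study, activating HRAS mutations were found in a part of the cells of each. The comparisons ask how the RNA of each resistant line differed from that of the parental line, always the same 3 parental libraries, and how the resistant lines differed from each other. The labels do not give the libraries of a line as separate cultures and a legend of the study calls them technical, so that p-values measure the spread between these libraries only, and line and culture cannot be told apart. LIM1215-R1 replicate 2 stood apart in its dependence on GC content. Values without it are given for counts of calls in LIM1215-R1 and where a named member's call was lost. The results on GC content were not recomputed without it.

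The members were all genes whose symbol is ZNF and a number and that reached 1800 counts summed over the 9 libraries. They were 171 of 476 such symbols listed, with 253 below that sum and 52 at 0. They were thus chosen by their counts, and their level is no result. ZNF619, ZNF430 and ZNF184 lay just inside with 1878, 1871 and 1808 counts, and ZNF724, ZNF594 and ZNF766 just outside with 1784, 1762 and 1756. The 171 members held 938031 of the 1092519 counts of all numbered ZNF genes (85.86%).

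Most numbered ZNF genes code for proteins with C2H2 zinc fingers, short folds held by a zinc ion that read DNA when they stand in a row. Many also carry a KRAB box, which recruits the corepressor TRIM28 and through it the histone methyltransferase SETDB1 and heterochromatin proteins. KRAB proteins are best known for silencing transposons, and their genes arose by repeated duplication and crowd on chromosome 19. Others have no KRAB box and act as activators, as partners of chromatin complexes, or on RNA, ribosomes and the spindle. A conserved KRAB pattern was found in the annotated proteins of 83 members and not in 88, and 12 members held a SCAN box, a dimerisation domain. A pattern can miss a KRAB box, so that the 88 may still include KRAB genes. The number of C2H2 fingers found by pattern ran from 0 to 40 with a median of 9, and 5 members, among them ZNF703 and ZNF503, showed none. The members lay on 21 chromosomes, with 49 of them on chromosome 19, 33 of these with the KRAB pattern.

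What the members shared beside their names was read first in their promoters. The RefSeq table of GRCh38.p14 promoters, each covering 250 bases before a gene's start and 50 after it, held 146 of the 171. The letters CCGGAAG, a core bound by ETS transcription factors, were found on either strand in 69 of these 146 windows (47.3%). They were found in 22.2% of the 7318 promoters of genes with at least 1800 counts and in 10.7% of all 27305 promoters. Of the 82 matches in members, 66 lay wholly within the last 150 bases of the window, from 100 bases before the start to 50 after it, and 11 members had 2 or more. These shares describe the promoters and were not tested.

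Of the other motifs searched on both strands, the GC box GGGCGG was found in 63.7% of member promoters, 72.4% of those of genes with at least 1800 counts and 44.6% of all. The cyclic AMP response element TGACGTCA was found in 6.85%, 3.66% and 1.98%. A core of the site read by ZNF143 was found in 4 member promoters (2.74%), against 0.629% and 0.256%. These 4 were ZNF180, ZNF277, ZNF317 and ZNF451, picked out after the search. The AP-1 letters TGANTCA, the NRF1 site, the YY1 letters GCCATCTTG and the E-box CACGTG were found in 6.85%, 2.74%, 2.74% and 9.59% of member promoters. Their shares in genes with at least 1800 counts were 3.96%, 2.69%, 3.36% and 10.9%. Of the 82 ETS matches, 2 overlapped a match of another motif. A match describes these letters and is no evidence of binding.

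**Figure D1:**
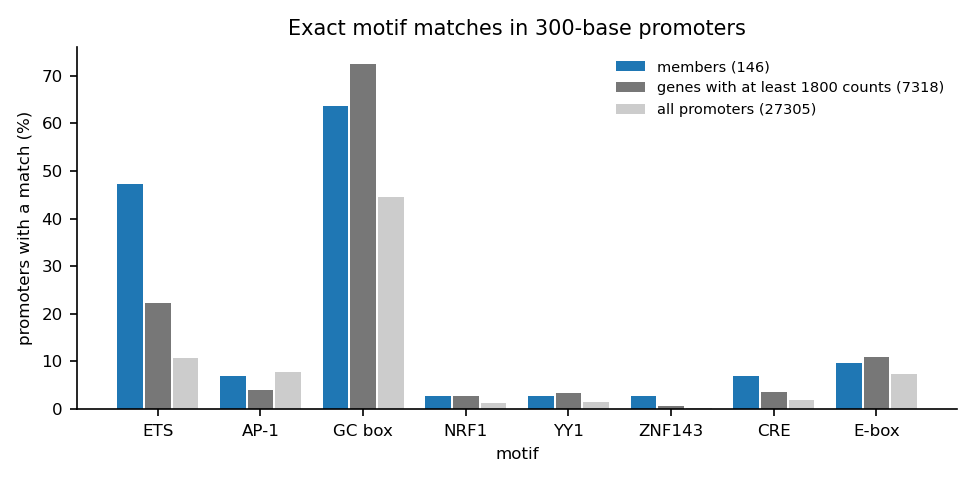
Share of 300-base promoters (y axis, %) with an exact match on either strand to each of 8 motifs (x axis), for the members, for genes with at least 1800 counts and for all promoters. The ETS letters stand at 47.3% in the members against 22.2% and 10.7%, whereas the GC box is less frequent in the members (63.7%) than in genes with at least 1800 counts (72.4%).

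The promoters of the 2 members that fell most and the 2 that rose most in LIM1215-R1 are printed to show what such a window looks like, 5′ to 3′ on the gene's strand (RefSeq, GRCh38.p14), with the ETS letters CCGGAAG in capitals. In ZNF641 the match began 45 bases before the start and in ZNF584 147 bases before it. In ZNF593 it spanned bases 8 to 14 of the transcript, and ZNF711 had none. The table's starts of ZNF641 and ZNF584 lie inside the longer span annotated for these genes.
ZNF641 (chr12:48350870-48351169, minus strand): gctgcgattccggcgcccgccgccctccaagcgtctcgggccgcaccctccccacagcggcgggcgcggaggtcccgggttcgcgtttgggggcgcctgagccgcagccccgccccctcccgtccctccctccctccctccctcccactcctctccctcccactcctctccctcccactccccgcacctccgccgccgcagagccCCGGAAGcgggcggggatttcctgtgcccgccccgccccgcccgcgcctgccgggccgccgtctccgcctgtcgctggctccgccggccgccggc
ZNF711 (chrX:85243741-85244040, plus strand): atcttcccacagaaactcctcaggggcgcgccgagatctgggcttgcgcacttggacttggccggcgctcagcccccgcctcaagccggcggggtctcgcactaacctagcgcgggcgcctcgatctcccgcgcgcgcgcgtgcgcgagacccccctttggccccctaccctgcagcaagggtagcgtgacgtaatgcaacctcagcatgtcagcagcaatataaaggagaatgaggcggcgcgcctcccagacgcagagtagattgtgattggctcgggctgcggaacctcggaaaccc
ZNF593 (chr1:26169658-26169957, plus strand): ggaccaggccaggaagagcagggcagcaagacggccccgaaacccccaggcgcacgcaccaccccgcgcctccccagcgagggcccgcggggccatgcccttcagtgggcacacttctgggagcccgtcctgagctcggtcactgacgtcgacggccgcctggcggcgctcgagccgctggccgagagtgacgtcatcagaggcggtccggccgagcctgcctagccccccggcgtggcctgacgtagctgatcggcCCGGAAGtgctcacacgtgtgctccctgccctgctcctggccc
ZNF584 (chr19:58408399-58408698, plus strand): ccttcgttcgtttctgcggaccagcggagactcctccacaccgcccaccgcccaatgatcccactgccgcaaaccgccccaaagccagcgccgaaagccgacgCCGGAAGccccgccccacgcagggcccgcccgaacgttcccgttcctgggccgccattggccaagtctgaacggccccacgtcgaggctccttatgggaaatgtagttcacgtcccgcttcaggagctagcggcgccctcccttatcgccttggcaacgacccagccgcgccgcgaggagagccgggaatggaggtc

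In LIM1215-R1, 59 of the 171 members were lower than in the parental line and 8 were higher. A member was called higher or lower at an edgeR quasi-likelihood adjusted p (Benjamini-Hochberg over all 19102 genes tested) of at most 0.01, whatever its size. All 171 members were tested, and the calls were 34.5% and 4.68% of them. Over all genes tested 13.4% were lower and 14% higher, and of the 8936 genes with at least 1800 counts 20.1% were lower and 20.4% higher. The median log2 fold change was -0.16 over the members and -0.01 over all genes, and 138 of 171 values were below 0. The 208 numbered ZNF genes tested below 1800 counts had 60 lower and 4 higher, with a median of -0.38. Without LIM1215-R1 replicate 2, 47 members were lower and 7 higher, with a median of -0.14. A log2 fold change of 1.5 either way at the same adjusted p was reached by 0 members with edgeR and 0 with DESeq2, while 5.14% of all genes and 1.53% of those with at least 1800 counts reached it. Of the 208 numbered ZNF genes below the count limit, 7 reached it with edgeR. The members' values ran from -1.20 to 0.78.

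In LIM1215-R2, 33 members were lower than in the parental line (19.3%) and 11 higher (6.43%). Over all genes tested 11.6% were lower and 12.3% higher, and over genes with at least 1800 counts 16.8% and 18.3%. The share of lower members was thus near that of genes of like counts, while the share of higher members was below it. The median was -0.11 over the members and -0.0037 over all genes, with 121 of 171 values below 0, and the members' values ran from -1.14 to 0.57. The 11 higher members were 7 without parental replicate 1 and 6 without LIM1215-R2 replicate 1 or replicate 2. The fold threshold was passed by 0 members, by 4.82% of all genes and by 1.47% of genes with at least 1800 counts.

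Between the resistant lines, 11 members were higher in R2 than in R1 (6.43%) and 2 lower (1.17%). Over all genes 3.39% were higher and 3.77% lower, and over those with at least 1800 counts 5.83% and 5.27%. The members' median was 0.07. The 11 higher became 19 without parental replicate 2, 17 without LIM1215-R1 replicate 1 and 4 without LIM1215-R1 replicate 2, LIM1215-R1 replicate 3 or LIM1215-R2 replicate 2. Without LIM1215-R2 replicate 1 they were 2. The 2 lower became 1 without parental replicate 3, LIM1215-R1 replicate 3, LIM1215-R2 replicate 1 or LIM1215-R2 replicate 2. The fold threshold was passed by 0 members, by 0.764% of all genes and by 0.0895% of those with at least 1800 counts. Side by side against the same parental libraries, 25 members were lower in both lines, 5 higher in both, 34 lower in LIM1215-R1 alone and 8 lower in LIM1215-R2 alone. A further 3 were higher in LIM1215-R1 alone, 6 in LIM1215-R2 alone, and 90 passed in neither. Calls in opposite directions numbered 0. These joint counts were made for the members alone, on shared parental libraries, and do not set the members apart from other genes. A call in one line alone does not show a difference between the lines, which is tested by the comparison of R2 with R1.

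**Figure D2:**
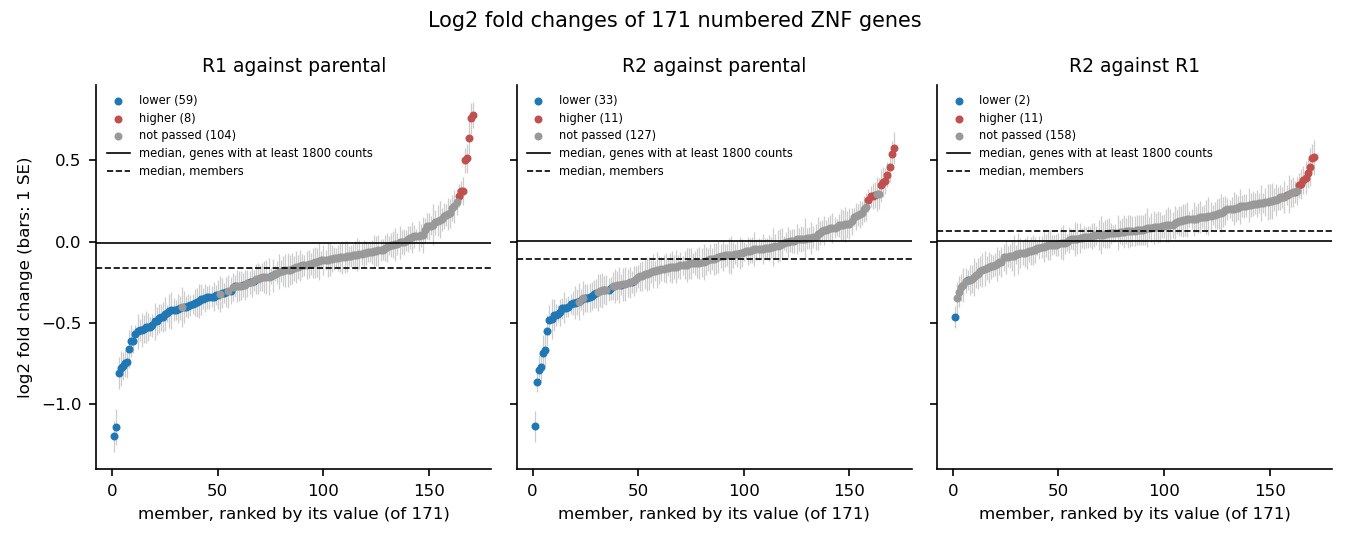
Log2 fold change (y axis, bars 1 SE) of the 171 members, ranked along the x axis, for R1 against parental, R2 against parental and R2 against R1, coloured by call. The dashed line is the members' median (-0.16, -0.11 and 0.07) and the solid line that of all genes with at least 1800 counts, which lies near 0; 59, 33 and 2 members were lower and 8, 11 and 11 higher.

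The summed level moved with the counts of calls. In CPM, counts scaled to each library's total after TMM normalization, the members summed to 6735, 6835 and 6897 in the parental libraries, listed from lowest to highest. The sums were 5931, 6082 and 6134 in LIM1215-R1 and 6255, 6355 and 6400 in LIM1215-R2. The lines did not overlap, with the parental line highest and LIM1215-R1 lowest. The 83 KRAB members summed to 2095 to 2222 CPM in the parental line, 1820 to 1955 in LIM1215-R1 and 1968 to 2049 in LIM1215-R2. The 88 others summed to 4634 to 4675, 4111 to 4185 and 4287 to 4351 CPM. In bulk RNA, fewer cells with a transcript and less of it per cell cannot be told apart.

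**Figure D3:**
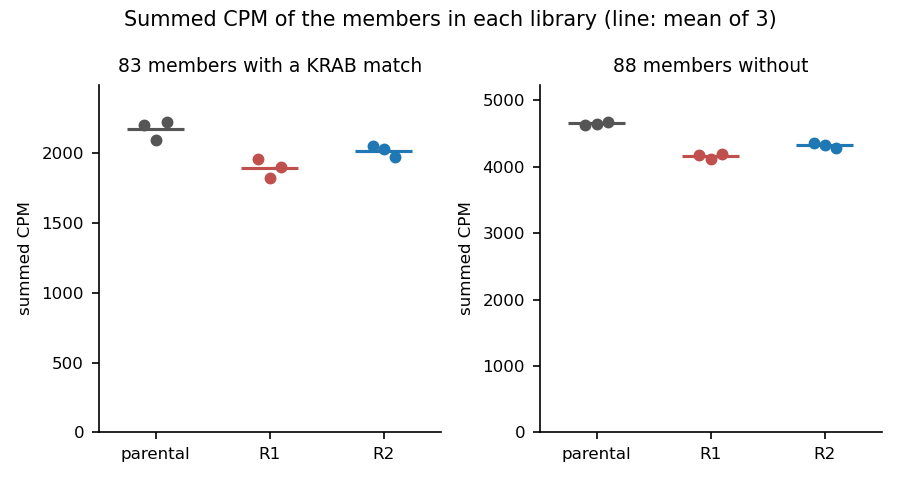
Summed CPM (y axis) of the 83 members with a KRAB match and the 88 without, in each library of the 3 lines (points, with a line at the mean of 3). Every parental library lies above every library of either resistant line, and in both panels LIM1215-R1 (1820 to 1955 and 4111 to 4185) also lies below LIM1215-R2 (1968 to 2049 and 4287 to 4351).

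Levels differed widely between members. Mean CPM over the 9 libraries ran from 12.3, a lower end set by the count limit, to 327.5 with a median of 24.95. The coefficient of variation between the 3 libraries of a line had a median of 6.19% (0.507% to 23.3%). ZNF664 was highest, with 365, 339 and 364 CPM in the parental libraries, 326, 285 and 312 in LIM1215-R1 and 331, 326 and 299 in LIM1215-R2. All of its resistant libraries lay below the parental ones. Written as log2 fold change ± SE, with 3 libraries against 3 here and throughout, ZNF664 gave -0.21 ± 0.0504 (edgeR adjusted p = 0.00147) in LIM1215-R1. In LIM1215-R2 it gave -0.16 ± 0.0504 (edgeR adjusted p = 0.015), which missed the threshold but passed after correction for GC content and transcript length, described with the GC results, at -0.13 (edgeR adjusted p = 0.00129). ZNF207, the kinetochore protein BuGZ that helps spindle assembly, came next, with 273, 283 and 272 CPM in the parental libraries, 284, 285 and 278 in LIM1215-R1 and 272, 282 and 270.0 in LIM1215-R2. Its 3 lines overlapped. Against parental, ZNF207 stood at 0.03 (edgeR adjusted p = 0.612) in LIM1215-R1 and at -0.01 (edgeR adjusted p = 0.93) in LIM1215-R2. With that correction its LIM1215-R1 value was 0.22 (edgeR adjusted p = 3.51e-05) and R2 against R1 gave -0.22 (edgeR adjusted p = 0.000169). These values come from the correction, as the CPM were level. They rest on a reference transcript of 13740 bases and 36.8% GC, whichever transcript the cells express.

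Per kilobase of transcript, ZNF664 also led at 75.9 CPM per kb, followed by ZNF703 at 60.1, ZNF593 at 49.6, ZNF146 at 40.04 and ZNF598 at 35.3. The lowest member stood at 1.39 CPM per kb. KRAB members had a median of 5.37 CPM per kb (1.39 to 16.6) and the others 7.72 (2.17 to 75.9). The rest of the 10 highest by CPM were ZNF703, ZNF146, ZNF106, ZNF638, ZNF24, ZNF598, ZNF770 and ZNF121. ZNF146 (OZF), a protein made up almost wholly of fingers, had 144, 126 and 146 CPM in the parental libraries, 133, 107 and 128 in LIM1215-R1 and 141, 147 and 134 in LIM1215-R2. Each resistant line overlapped the parental line. Against parental, ZNF146 stood at -0.18 (edgeR adjusted p = 0.035) in LIM1215-R1 and at 0.02 (edgeR adjusted p = 0.869) in LIM1215-R2. ZNF770 and ZNF121 likewise passed in no comparison, with log2 fold changes against parental of -0.15 and -0.11 for LIM1215-R1 and of 0.09 and 0.09 for LIM1215-R2.

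ZNF641, a KRAB gene, fell most in both resistant lines. It had 39.95, 35.5 and 38.1 CPM in the parental libraries, 18.8, 15.2 and 15.6 in LIM1215-R1 and 14.9, 18.9 and 18.1 in LIM1215-R2. Every resistant library lay below every parental one. Against parental, ZNF641 stood at -1.20 ± 0.0932 (edgeR adjusted p = 3.81e-11) in LIM1215-R1 and at -1.14 ± 0.0927 (edgeR adjusted p = 9.46e-11) in LIM1215-R2. The resistant lines overlapped, with R2 against R1 at 0.06 (edgeR adjusted p = 0.784). ZNF711, an X-linked factor that binds promoters and recruits the histone demethylase PHF8, had 19.6, 21.9 and 22.01 CPM in the parental libraries, 10.2, 7.97 and 10.6 in LIM1215-R1 and 14.6, 11.4 and 13.6 in LIM1215-R2. The 3 lines stood apart, with LIM1215-R1 lowest. Against parental, ZNF711 stood at -1.14 ± 0.112 (edgeR adjusted p = 3.5e-09) in LIM1215-R1 and at -0.68 ± 0.107 (edgeR adjusted p = 9.44e-06) in LIM1215-R2. R2 against R1 gave 0.46 (edgeR adjusted p = 0.00961). That call was lost without LIM1215-R1 replicate 2 (0.34, edgeR adjusted p = 0.0735), without LIM1215-R1 replicate 3 (0.53, edgeR adjusted p = 0.013) and without parental replicate 3 (0.46, edgeR adjusted p = 0.011). It was also lost without LIM1215-R2 replicate 1 (0.38, edgeR adjusted p = 0.0919) or replicate 3 (0.44, edgeR adjusted p = 0.0326) and after GC and length correction, at 0.38 (edgeR adjusted p = 0.0118). The DESeq2 Wald test lost it too (0.45, DESeq2 adjusted p = 0.011). So did a filter of at least 10 counts in every library (edgeR adjusted p = 0.0143) and a fit of only the 6 libraries compared (edgeR adjusted p = 0.0115).

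ZNF362 had 23.2, 26.4 and 23.9 CPM in the parental libraries, 14.5, 14.1 and 14.5 in LIM1215-R1 and 14.3, 14.1 and 14.04 in LIM1215-R2. Both resistant lines were tight and nearly level. Against parental, ZNF362 stood at -0.76 ± 0.0859 (edgeR adjusted p = 4.29e-08) in LIM1215-R1 and at -0.79 ± 0.0861 (edgeR adjusted p = 2.7e-08) in LIM1215-R2. ZNF22 had 27.5, 26.1 and 30.9 CPM in the parental libraries, 18.8, 14.4 and 15.3 in LIM1215-R1 and 16.9, 19.4 and 17.1 in LIM1215-R2. Again every resistant library lay below every parental one. Against parental, ZNF22 stood at -0.81 ± 0.0977 (edgeR adjusted p = 1.62e-07) in LIM1215-R1 and at -0.67 ± 0.0964 (edgeR adjusted p = 2.97e-06) in LIM1215-R2. ZNF219 had 60.5, 68.5 and 67.8 CPM in the parental libraries, 49.5, 50.2 and 49.5 in LIM1215-R1 and 34.8, 35.7 and 37.9 in LIM1215-R2. Here the order was parental, LIM1215-R1, LIM1215-R2 with no overlap. Against parental, ZNF219 stood at -0.40 ± 0.063 (edgeR adjusted p = 1.05e-05) in LIM1215-R1 and at -0.86 ± 0.0651 (edgeR adjusted p = 2.06e-11) in LIM1215-R2. R2 against R1 gave -0.46 ± 0.0665 (edgeR adjusted p = 1.56e-05), the largest fall of a member between the resistant lines. ZNF219 transcripts are 70.2% GC, and after GC and length correction the LIM1215-R1 value was -0.70 (edgeR adjusted p = 1.47e-15).

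Among the other members with the 10 largest changes, ZNF107, ZNF84 and ZNF260 were lower in both lines, and ZNF248 and ZNF92 in LIM1215-R1. ZNF107, a KRAB gene, had 45.97, 41.8 and 42.1 CPM in the parental libraries, 27.9, 22.5 and 27.03 in LIM1215-R1 and 32.8, 34.1 and 29.1 in LIM1215-R2. All of its resistant libraries lay below the parental ones. Against parental, ZNF107 stood at -0.75 ± 0.0824 (edgeR adjusted p = 3.1e-08) in LIM1215-R1 and at -0.44 ± 0.0804 (edgeR adjusted p = 9.17e-05) in LIM1215-R2. ZNF84 fell by 0.74 in LIM1215-R1 and 0.48 in LIM1215-R2 on the log2 scale, and ZNF260 fell by 0.61 and 0.55. ZNF92 gave -0.66 (edgeR adjusted p = 3.84e-05) in LIM1215-R1. In LIM1215-R2 it gave -0.37 (edgeR adjusted p = 0.0114), just short of the threshold, which it passed without parental replicate 2 (-0.44, edgeR adjusted p = 0.00225) and without any 1 of the LIM1215-R1 libraries (edgeR adjusted p = 0.00762, 0.00177 and 0.00661). It passed in 9 of 17 alternatives in all, among them GC and length correction, at -0.38 (edgeR adjusted p = 0.000395).

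Members that rose were fewer. ZNF593, a small protein of ribosome assembly, had 22.4, 24.7 and 21.4 CPM in the parental libraries, 37.7, 38.9 and 40.5 in LIM1215-R1 and 30.6, 31.7 and 36.8 in LIM1215-R2. Every resistant library lay above every parental one. Against parental, ZNF593 stood at 0.78 ± 0.0807 (edgeR adjusted p = 1.04e-08) in LIM1215-R1 and at 0.54 ± 0.082 (edgeR adjusted p = 6.92e-06) in LIM1215-R2. ZNF584, a KRAB gene, had 14.3, 13.4 and 11.3 CPM in the parental libraries, 22.8, 21.9 and 20.96 in LIM1215-R1 and 17.96, 19.5 and 20.4 in LIM1215-R2. It too was higher without overlap. Against parental, ZNF584 stood at 0.76 ± 0.0964 (edgeR adjusted p = 3.66e-07) in LIM1215-R1 and at 0.57 ± 0.0978 (edgeR adjusted p = 3.06e-05) in LIM1215-R2. The other members higher in both lines were ZNF503, described with the lineage regulators, ZNF511 and ZNF276. ZNF511 and ZNF276 are named because only 5 members rose in both, after their values were seen. ZNF511 stood at log2 values of 0.51 and 0.45. Its level is uncertain, since 42.9% of its 75-base stretches also occur in a read-through transcript annotated over it. ZNF276 gave 0.28 and 0.25, but after GC and length correction passed in neither line, at 0.16 (edgeR adjusted p = 0.0274) and 0.19 (edgeR adjusted p = 0.0137).

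In LIM1215-R1 alone, ZNF165, ZNF778 and ZNF598 were higher, at log2 fold changes of 0.64, 0.31 and 0.31, the first 2 also named after their values were seen. ZNF165 passed in LIM1215-R2 as well after GC and length correction, at 0.31 (edgeR adjusted p = 0.0088). Of the 6 that passed in LIM1215-R2 alone, ZNF215, a KRAB gene, had the largest value, with 16.5, 15.4 and 16.9 CPM in the parental libraries, 17.3, 14.6 and 15.3 in LIM1215-R1 and 21.8, 21.9 and 19.4 in LIM1215-R2. LIM1215-R2 lay above both other lines, which overlapped. Against parental LIM1215-R2 gave 0.37 ± 0.0911 (edgeR adjusted p = 0.00228). The call was lost without LIM1215-R2 replicate 1 (0.34, edgeR adjusted p = 0.0165) or replicate 2 (0.34, edgeR adjusted p = 0.0171).

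**Figure D4:**
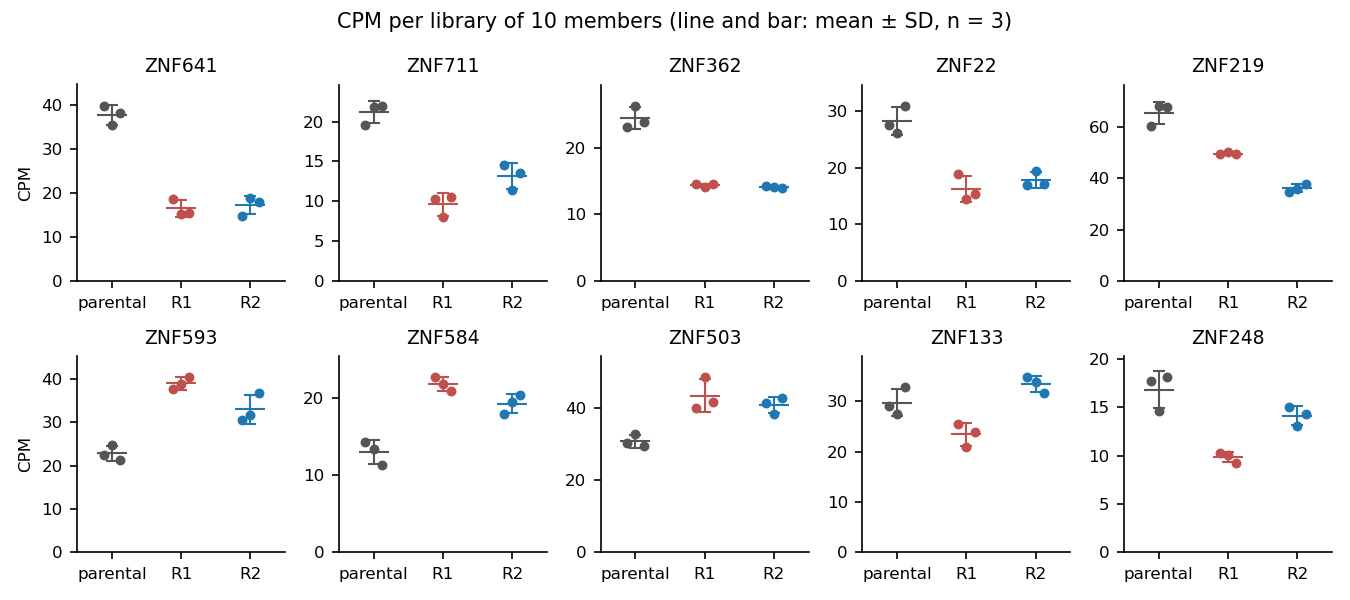
CPM (y axis, from 0) in each of the 9 libraries for 10 members with large changes, by line (x axis), with the mean and SD of 3. ZNF641, ZNF711, ZNF362, ZNF22 and ZNF219 stand lower in both resistant lines than in the parental line, ZNF593, ZNF584 and ZNF503 higher, and ZNF133 and ZNF248 differ between R1 and R2.

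Of 14 chromatin and lineage regulators listed, 12 were tested and 9 are members. Against parental, 3 of the 12 were higher and 7 lower in LIM1215-R1, and 1 was higher and 6 lower in LIM1215-R2. Of all genes tested, 14% were higher and 13.4% lower in LIM1215-R1, and 12.3% and 11.6% in LIM1215-R2. Of the 3 higher in LIM1215-R1, ZNF503 is a member, while ZNF532 and ZNF423 had 84 and 57 counts over the 9 libraries. ZNF217, an oncogene amplified in breast cancer that works with the CoREST and CtBP corepressors, had 49.9, 51.6 and 47.8 CPM in the parental libraries, 36.01, 33.5 and 32.8 in LIM1215-R1 and 37.9, 35.4 and 35.7 in LIM1215-R2. All resistant libraries lay below the parental ones. Against parental, ZNF217 stood at -0.54 ± 0.0671 (edgeR adjusted p = 2.17e-07) in LIM1215-R1 and at -0.45 ± 0.0667 (edgeR adjusted p = 4.16e-06) in LIM1215-R2. ZNF703, a corepressor amplified in luminal breast cancer, had 236, 258 and 232 CPM in the parental libraries, 166, 188 and 182 in LIM1215-R1 and 180.1, 170.1 and 183 in LIM1215-R2. It too was lower without overlap. Against parental, ZNF703 stood at -0.44 ± 0.0526 (edgeR adjusted p = 1.3e-07) in LIM1215-R1 and at -0.44 ± 0.0526 (edgeR adjusted p = 1.1e-07) in LIM1215-R2. Its transcripts are 65.2% GC, and after GC and length correction the LIM1215-R1 value was -0.68 (edgeR adjusted p = 5.2e-21). Its paralog ZNF503 went the other way, with 30.1, 32.6 and 29.4 CPM in the parental libraries, 39.8, 48.5 and 41.7 in LIM1215-R1 and 41.1, 38.3 and 42.6 in LIM1215-R2. All resistant libraries lay above the parental ones. Against parental, ZNF503 stood at 0.50 ± 0.0777 (edgeR adjusted p = 8.31e-06) in LIM1215-R1 and at 0.41 ± 0.0782 (edgeR adjusted p = 0.000133) in LIM1215-R2. Corrected for GC and length, these were 0.29 and 0.27, both still past the threshold.

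ZNF644, which binds the G9a and GLP histone methyltransferases, had 102, 86.1 and 103 CPM in the parental libraries, 68.95, 56.3 and 66.02 in LIM1215-R1 and 80.5, 75.8 and 68.1 in LIM1215-R2. Its parental values were above all others. Against parental, ZNF644 stood at -0.61 ± 0.0755 (edgeR adjusted p = 2.31e-07) in LIM1215-R1 and at -0.38 ± 0.0746 (edgeR adjusted p = 0.000199) in LIM1215-R2. ZNF462, a developmental regulator with 33 fingers by the pattern, had 29.1, 28.4 and 30.99 CPM in the parental libraries, 20.2, 18.3 and 22.7 in LIM1215-R1 and 16.2, 18.4 and 17.4 in LIM1215-R2. Both resistant lines lay below the parental libraries. Against parental, ZNF462 stood at -0.54 ± 0.0861 (edgeR adjusted p = 1.35e-05) in LIM1215-R1 and at -0.77 ± 0.0879 (edgeR adjusted p = 5.63e-08) in LIM1215-R2. ZNF292, a very large zinc finger protein, gave -0.40 (edgeR adjusted p = 0.000115) in LIM1215-R1, or -0.21 (edgeR adjusted p = 0.00702) after GC and length correction. In LIM1215-R2 ZNF292 did not pass, at -0.17 (edgeR adjusted p = 0.0817).

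ZNF687 and ZNF592, which form a coregulator complex with ZMYND8, did not pass in either line. Against parental, ZNF687 stood at -0.14 (edgeR adjusted p = 0.134) in LIM1215-R1 and at -0.11 (edgeR adjusted p = 0.252) in LIM1215-R2. Against parental, ZNF592 stood at -0.10 (edgeR adjusted p = 0.199) in LIM1215-R1 and at -0.06 (edgeR adjusted p = 0.478) in LIM1215-R2. With GC and length corrected, ZNF687 passed in both lines, at -0.26 (edgeR adjusted p = 9.72e-05) and -0.18 (edgeR adjusted p = 0.00485). ZNF516 and ZNF532, other zinc finger partners in that complex, were below the count limit of the members and went opposite ways in LIM1215-R1. ZNF516 had 13.2, 14.2 and 10.9 CPM in the parental libraries, 1.17, 1.25 and 1.502 in LIM1215-R1 and 1.25, 0.681 and 1.57 in LIM1215-R2. Its parental libraries were far above all others. Against parental, ZNF516 stood at -3.27 (edgeR adjusted p = 1.05e-13) in LIM1215-R1 and at -3.44 (edgeR adjusted p = 5.64e-14) in LIM1215-R2. No member's log2 fold change came near these. ZNF532 had 0.236, 0.0722 and 0.158 CPM in the parental libraries, 1.41, 1.07 and 1.06 in LIM1215-R1 and 0.535, 0.619 and 0 in LIM1215-R2. LIM1215-R1 lay above both other lines at these low levels. Against parental, ZNF532 stood at 2.83 (edgeR adjusted p = 0.000333) in LIM1215-R1 and at 1.25 (edgeR adjusted p = 0.201) in LIM1215-R2. Fitted folds from so few counts depend on the prior count.

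Zinc finger proteins of RNA, ribosomes and the spindle, 9 members in all, had 2 higher and 4 lower in LIM1215-R1 and 1 of each in LIM1215-R2. Of all genes tested 14% were higher and 13.4% lower in LIM1215-R1, and 12.3% and 11.6% in LIM1215-R2. Of genes with at least 1800 counts, as all 9 have, these shares were 20.4% and 20.1%, and 18.3% and 16.8%. ZNF598, the ubiquitin ligase that marks collided ribosomes, had 102, 114 and 108 CPM in the parental libraries, 124, 146 and 132 in LIM1215-R1 and 116, 106 and 119 in LIM1215-R2. LIM1215-R1 lay above both other lines. Against parental, ZNF598 stood at 0.31 ± 0.0607 (edgeR adjusted p = 0.00018) in LIM1215-R1 and at 0.07 ± 0.0612 (edgeR adjusted p = 0.413) in LIM1215-R2. Its transcripts are 65.0% GC, and the LIM1215-R1 call ended after GC and length correction, at 0.07 (edgeR adjusted p = 0.158). ZNF326, part of a complex that couples transcription to splicing, had 87.6, 79.3 and 96.9 CPM in the parental libraries, 67.8, 57.05 and 60.3 in LIM1215-R1 and 75.9, 70.6 and 68.9 in LIM1215-R2. Every resistant library was below every parental one. Against parental, ZNF326 stood at -0.51 ± 0.0707 (edgeR adjusted p = 1.25e-06) in LIM1215-R1 and at -0.30 ± 0.0698 (edgeR adjusted p = 0.00145) in LIM1215-R2. The LIM1215-R1 value was -0.33 (edgeR adjusted p = 1.67e-07) after GC and length correction. The LIM1215-R2 call was lost without parental replicate 3 (-0.22, edgeR adjusted p = 0.0281), LIM1215-R2 replicate 2 (-0.28, edgeR adjusted p = 0.0129) or LIM1215-R2 replicate 3 (-0.27, edgeR adjusted p = 0.0111).

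ZNF638, an RNA-binding factor that also silences unintegrated retroviral DNA, had 142, 121 and 141 CPM in the parental libraries, 112, 93.5 and 112 in LIM1215-R1 and 129.5, 132 and 130.2 in LIM1215-R2. LIM1215-R1 lay below both other lines, which overlapped. Against parental, ZNF638 stood at -0.35 ± 0.0653 (edgeR adjusted p = 8.95e-05) in LIM1215-R1 and at -0.05 ± 0.0645 (edgeR adjusted p = 0.651) in LIM1215-R2. Its LIM1215-R1 value was -0.22 (edgeR adjusted p = 4.97e-05) after GC and length correction. ZNF106 gave -0.20 (edgeR adjusted p = 0.00167) in LIM1215-R1, a call lost without parental replicate 1 (-0.18, edgeR adjusted p = 0.0126), without LIM1215-R1 replicate 3 (-0.19, edgeR adjusted p = 0.0116) and after GC and length correction, at -0.10 (edgeR adjusted p = 0.025). ZNF830, a factor of splicing, gave -0.32 (edgeR adjusted p = 0.00728) in LIM1215-R1, a call lost without any 1 of the 6 libraries of the lines compared, with edgeR adjusted p from 0.011 to 0.0521. ZNF622, which acts in ribosome maturation, and ZNF346, which binds double-stranded RNA, stood at 0.02 and 0.03 (log2) in LIM1215-R1 and at 0.02 and -0.13 in LIM1215-R2, none past the threshold.

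Of 9 widely used transcription factors, all members, 1 was lower in each resistant line and 0 were higher. Of all genes tested 13.4% and 11.6% were lower and 14% and 12.3% higher in LIM1215-R1 and LIM1215-R2. For genes with at least 1800 counts the shares were 20.1% and 16.8% lower and 20.4% and 18.3% higher. ZNF148, which binds GC-rich promoters, had 58.9, 56.6 and 57.99 CPM in the parental libraries, 48.1, 44.4 and 45.8 in LIM1215-R1 and 55.4, 58.4 and 55.1 in LIM1215-R2. LIM1215-R1 stood below both other lines, which overlapped. Against parental, ZNF148 stood at -0.33 ± 0.0605 (edgeR adjusted p = 8.8e-05) in LIM1215-R1 and at -0.04 ± 0.0594 (edgeR adjusted p = 0.685) in LIM1215-R2. The LIM1215-R1 call ended after GC and length correction, at -0.13 (edgeR adjusted p = 0.0446). ZNF76, a relative of ZNF143, had 29.9, 32.9 and 26.2 CPM in the parental libraries, 24.9, 29.8 and 28.03 in LIM1215-R1 and 19.8, 23.5 and 23.6 in LIM1215-R2. LIM1215-R2 lay below both other lines. Against parental, ZNF76 stood at -0.10 ± 0.0909 (edgeR adjusted p = 0.456) in LIM1215-R1 and at -0.41 ± 0.0932 (edgeR adjusted p = 0.00109) in LIM1215-R2. The LIM1215-R2 call was lost without LIM1215-R2 replicate 1 (-0.33, edgeR adjusted p = 0.0183). In LIM1215-R1 it passed after GC and length correction, at -0.27 (edgeR adjusted p = 0.00277). ZNF143 itself, which binds promoters and the ends of chromatin loops, had 17.8, 15.03 and 16.1 CPM in the parental libraries, 16.9, 13.9 and 15.1 in LIM1215-R1 and 14.8, 15.6 and 15.3 in LIM1215-R2. Its lines overlapped. Against parental, ZNF143 stood at -0.09 (edgeR adjusted p = 0.513) in LIM1215-R1 and at -0.10 (edgeR adjusted p = 0.474) in LIM1215-R2. ZNF281, ZNF384, ZNF410, ZNF24, ZNF263 and ZNF202 gave log2 fold changes from -0.18 to 0.20 against parental, none past the threshold. With GC and length corrected, ZNF384 was lower in both lines, at -0.15 and -0.18, and ZNF281 higher in LIM1215-R2, at 0.24. ZNF410 and ZNF263 share 82.7% and 48.7% of their 75-base stretches with other annotated transcripts, so that their counts are uncertain.

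Among 7 KRAB proteins known to bind transposons, 4 were lower in LIM1215-R1 and 1 in LIM1215-R2, with 0 higher in either. Of all genes tested 13.4% and 11.6% were lower and 14% and 12.3% higher. The members on this list were ZNF91, which silences SVA elements, and ZNF587, which binds HERV-K. ZNF91 had 32.1, 30.4 and 32.6 CPM in the parental libraries, 24.2, 19.7 and 22.2 in LIM1215-R1 and 31.5, 26.8 and 27.7 in LIM1215-R2. LIM1215-R1 lay below both other lines. Against parental, ZNF91 stood at -0.52 ± 0.085 (edgeR adjusted p = 1.49e-05) in LIM1215-R1 and at -0.15 ± 0.0825 (edgeR adjusted p = 0.196) in LIM1215-R2. ZNF587 had 38.8, 35.9 and 39.2 CPM in the parental libraries, 35.3, 35.96 and 36.5 in LIM1215-R1 and 39.8, 36.5 and 38.02 in LIM1215-R2. Each resistant line overlapped the parental line. Against parental, ZNF587 stood at -0.08 (edgeR adjusted p = 0.389) in LIM1215-R1 and at 0.00 (edgeR adjusted p = 0.985) in LIM1215-R2.

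Of 16 genes for the partners of KRAB proteins and for heterochromatin, none of them a member, 8 were lower and 0 higher in LIM1215-R1. In LIM1215-R2 6 were lower and 1, CHD3, higher. Of all genes tested 13.4% were lower and 14% higher in LIM1215-R1, and 11.6% and 12.3% in LIM1215-R2. With GC and length corrected, 8 were lower and 2 higher in each line. That fit also called larger shares of genes with at least 1800 counts, given with the GC results. The 2 higher in LIM1215-R1 were CHD3 at 0.13 (edgeR adjusted p = 0.00614) and HDAC2 at 0.19 (edgeR adjusted p = 2.28e-06). Uncorrected, CHD3 stood at 0.16 (edgeR adjusted p = 0.0128) and HDAC2 at 0.02 (edgeR adjusted p = 0.8) in LIM1215-R1. The HDAC2 CPM of LIM1215-R1 overlapped the parental values. Against parental, TRIM28 stood at 0.09 (edgeR adjusted p = 0.186) in LIM1215-R1 and at 0.04 (edgeR adjusted p = 0.644) in LIM1215-R2. Both TRIM28 values turned and passed after GC and length correction, at -0.13 (edgeR adjusted p = 0.000407) and -0.12 (edgeR adjusted p = 0.00103). SETDB1 had 54.1, 48.7 and 48.5 CPM in the parental libraries, 37.8, 34.9 and 40.05 in LIM1215-R1 and 39.2, 37.2 and 37.5 in LIM1215-R2. Its resistant libraries all lay below the parental ones. Against parental, SETDB1 stood at -0.42 (edgeR adjusted p = 1.66e-05) in LIM1215-R1 and at -0.41 (edgeR adjusted p = 2.84e-05) in LIM1215-R2. Against parental, ATF7IP stood at -0.67 (edgeR adjusted p = 1.13e-09) in LIM1215-R1 and at -0.42 (edgeR adjusted p = 3.34e-06) in LIM1215-R2. ATF7IP is the cofactor of SETDB1, and CBX5 is the heterochromatin protein HP1 alpha. Against parental, CBX5 stood at -0.45 (edgeR adjusted p = 5.14e-09) in LIM1215-R1 and at -0.29 (edgeR adjusted p = 9.02e-06) in LIM1215-R2. ZNF274, which guides SETDB1 to ZNF gene clusters and is itself below 1800 counts, had 14.9, 12.6 and 14.03 CPM in the parental libraries, 7.91, 6.84 and 8.07 in LIM1215-R1 and 7.91, 8.49 and 9.54 in LIM1215-R2. It was lower in both lines without overlap. Against parental, ZNF274 stood at -0.87 (edgeR adjusted p = 7.07e-07) in LIM1215-R1 and at -0.69 (edgeR adjusted p = 1.9e-05) in LIM1215-R2.

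The 13 members that differed between the resistant lines included 2 that kept the call when any 1 library was left out, ZNF133 and ZNF219; ZNF800 was not recomputed this way. ZNF133, a KRAB gene, had 29.03, 27.4 and 32.8 CPM in the parental libraries, 25.5, 20.96 and 23.9 in LIM1215-R1 and 34.9, 33.9 and 31.8 in LIM1215-R2. LIM1215-R1 was below both other lines, which overlapped. R2 against R1 gave a log2 fold change of 0.51 ± 0.0848 (edgeR adjusted p = 9.55e-05). Against parental, ZNF133 stood at -0.35 (edgeR adjusted p = 0.00188) in LIM1215-R1 and at 0.17 (edgeR adjusted p = 0.131) in LIM1215-R2. The LIM1215-R1 call was lost without LIM1215-R1 replicate 2 (-0.27, edgeR adjusted p = 0.0164) or parental replicate 3 (-0.27, edgeR adjusted p = 0.0298). ZNF248, also a KRAB gene, had 17.8, 14.6 and 18.1 CPM in the parental libraries, 10.3, 10.04 and 9.26 in LIM1215-R1 and 14.99, 13.1 and 14.3 in LIM1215-R2. LIM1215-R1 was lowest, without overlap. R2 against R1 gave 0.52 ± 0.109 (edgeR adjusted p = 0.00162). This call was lost without LIM1215-R1 replicate 3 (0.47, edgeR adjusted p = 0.0164) or LIM1215-R2 replicate 1 (0.47, edgeR adjusted p = 0.019).

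ZNF215, ZNF619, ZNF91, ZNF431, ZNF12, ZNF638 and ZNF148 were higher in R2 than in R1 by 0.42, 0.39, 0.38, 0.35, 0.35, 0.31 and 0.29 on the log2 scale, and ZNF598 was lower, at -0.24. Each of these 8 lost the call without at least 1 library. Without LIM1215-R1 replicate 2, the library that stood apart, all of them but ZNF148 lost it. ZNF215 was then 0.37 (edgeR adjusted p = 0.0152), ZNF619 0.36 (edgeR adjusted p = 0.0371) and ZNF91 0.30 (edgeR adjusted p = 0.0264). ZNF431 was 0.29 (edgeR adjusted p = 0.0551), ZNF12 0.32 (edgeR adjusted p = 0.0113) and ZNF638 0.22 (edgeR adjusted p = 0.0139). ZNF598 was -0.17 (edgeR adjusted p = 0.0685). Omissions of LIM1215-R2 libraries gave the largest p for each of the 8. These were 0.39 without LIM1215-R2 replicate 1 (edgeR adjusted p = 0.0216) for ZNF215, 0.37 without LIM1215-R2 replicate 1 (edgeR adjusted p = 0.046) for ZNF619 and 0.30 without LIM1215-R2 replicate 1 (edgeR adjusted p = 0.05) for ZNF91. They were 0.29 without LIM1215-R2 replicate 2 (edgeR adjusted p = 0.0817) for ZNF431, 0.31 without LIM1215-R2 replicate 2 (edgeR adjusted p = 0.0275) for ZNF12 and 0.30 without LIM1215-R2 replicate 2 (edgeR adjusted p = 0.0186) for ZNF638. For ZNF148 the value was 0.26 without LIM1215-R2 replicate 2 (edgeR adjusted p = 0.0208) and for ZNF598 -0.19 without LIM1215-R2 replicate 2 (edgeR adjusted p = 0.104). After GC and length correction ZNF148 and ZNF431 no longer passed, at 0.12 (edgeR adjusted p = 0.131) and 0.18 (edgeR adjusted p = 0.103).

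By structure, 27 of 83 KRAB members were lower in LIM1215-R1 and 2 higher (median log2 fold change -0.22), against 32 and 6 of 88 without the pattern (median -0.13). After GC and length correction the medians were -0.18 and -0.19. In LIM1215-R2 the counts were 13 and 4 of 83 and 20 and 7 of 88, with medians of -0.11 and -0.10. The 28 members with 15 or more fingers had 13 lower and 0 higher in LIM1215-R1, with a median of -0.29. The 37 with at most 4 fingers had 14 lower and 4 higher, with a median of -0.09. With GC and length corrected these medians were -0.28 and -0.18. On chromosome 19, 13 of 49 members were lower and 1 higher in LIM1215-R1, against 46 and 7 of 122 elsewhere. Members with the ETS letters had 22 of 69 lower and 5 higher in LIM1215-R1, and those with a promoter but without the letters 28 of 77 and 2. In LIM1215-R2 these counts were 8 and 5, and 18 and 5. Of all genes tested 13.4% were lower and 14% higher in LIM1215-R1, and 11.6% and 12.3% in LIM1215-R2. Over genes with at least 1800 counts the shares were 20.1% and 20.4%, and 16.8% and 18.3%. None of these differences between classes was tested.

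By position, 73 members lay in 15 clusters of at least 3 with gaps of at most 500000 bases between neighbouring listed ZNF genes. The largest held 10 members on chromosome 19 (GRCh38, chr19:19668153-24129968), ZNF101, ZNF253, ZNF486, ZNF430, ZNF714, ZNF431, ZNF738, ZNF91, ZNF675 and ZNF254. There 6 of 10 were lower in LIM1215-R1, with log2 fold changes from -0.54 to -0.11 and a median of -0.47. Among them ZNF431 and ZNF714 stood at -0.47 and -0.46, and at -0.28 and -0.28 after GC and length correction. In LIM1215-R2 2 were lower, with a median of -0.16. On chromosome 7 (chr7:63998849-65401136) ZNF107, ZNF138 and ZNF92 had a median of -0.66 in LIM1215-R1, with 2 of 3 lower, and of -0.37 in LIM1215-R2, with 1 lower. In LIM1215-R1 another cluster stood near 0 before GC and length correction. The 6 members of chr19:55476617-56671757, among them ZNF579, ZNF580 and ZNF787, had a median of -0.0016 there with 0 called. In LIM1215-R2 their median was -0.13, with 1 lower. After GC and length correction ZNF787 was lower in LIM1215-R1, at -0.28 (edgeR adjusted p = 1.96e-05). ZNF581, ZNF865 and ZNF444 were then called lower in LIM1215-R1 too, while ZNF579 and ZNF580 did not pass. On chromosome 12, 5 of 6 members were lower in LIM1215-R1 and 3 in LIM1215-R2. Over genes with at least 1800 counts 20.1% were lower in LIM1215-R1 and 16.8% in LIM1215-R2, and over all genes tested 13.4% and 11.6%. Neighbouring ZNF genes are related by duplication and are not independent of one another, and the clusters described were chosen after their values were seen.

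GC content moved with the changes in LIM1215-R1 and in R2 against R1, and less in LIM1215-R2. Transcripts of the members had a median GC content of 44.9%, against 47.6% for genes with at least 1800 counts. The 59 members lower in LIM1215-R1 stood at 42.3% and the 8 higher at 59.5%. Those lower in LIM1215-R2 stood at 46.0% and those higher at 55.2%. Across the 171 members, Pearson's r between GC content and log2 fold change was 0.374 in LIM1215-R1, 0.0861 in LIM1215-R2 and -0.512 for R2 against R1. Members share libraries and base composition and are no replicates, so that no p is given. Genes with at least 1800 counts were split into 4 GC classes of equal size. In LIM1215-R1 the 52 members in the class of lowest GC content had 44.2% lower, against 26.5% of all genes of that class, and the 46 of the next had 45.7% against 22.8%. In the upper 2 classes the shares were 20.7% against 18.8% and 20.5% against 12.3%. In LIM1215-R2 the 4 shares were 21.2%, 17.4%, 17.2% and 20.5%, against 14.2%, 18.7%, 18.9% and 15.1%.

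The correction took each library's smooth dependence on GC content and transcript length out of the fit. Both were read from a reference transcript, held by 86.3% of genes tested. It removes such trends whatever their source. With it, 76 members were lower and 12 higher in LIM1215-R1 (44.4% and 7.02%), where 27.9% of genes with at least 1800 counts were lower and 22.5% higher. In LIM1215-R2 53 were lower and 14 higher (31% and 8.19%), where 24.3% were lower and 23.3% higher. Of the members first called lower, 54 of 59 and 33 of 33 kept the call. Between the resistant lines, 16 were then higher and 5 lower (9.36% and 2.92%), where 8.78% and 7.14% were, with 8 of 11 and 2 of 2 kept. LIM1215-R1 replicate 2 stood furthest from the other libraries, with a median log2 deviation of -0.145 for genes of the lowest GC class and of 0.124 for the highest. The part of GC content in these results was not tested beyond this.

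**Figure D5:**
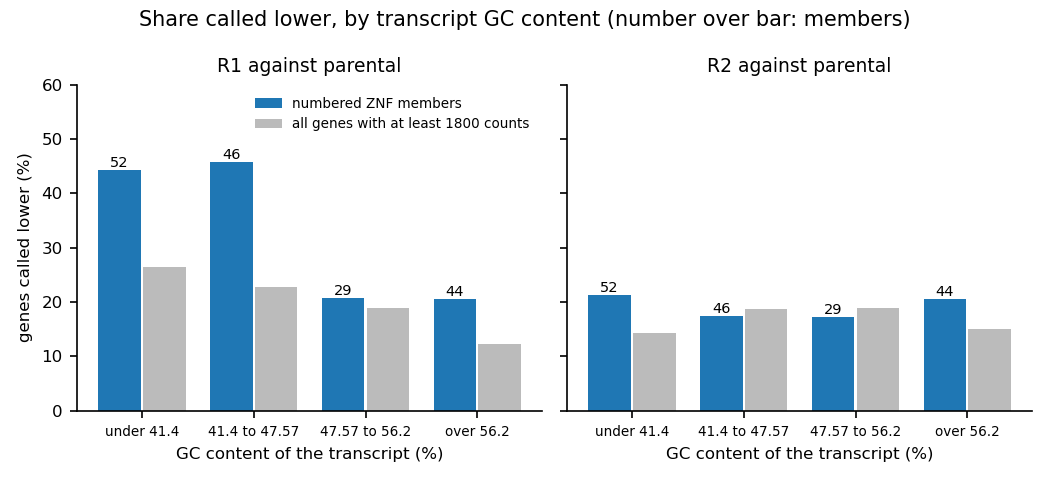
Share of genes called lower (y axis, %) in 4 classes of transcript GC content (x axis), for the members (blue, number of members above the bar) and all genes with at least 1800 counts (grey). In R1 the members exceed the other genes most in the lower 2 classes (44.2% against 26.5% and 45.7% against 22.8%), and in R2 all 4 shares of members lie between 17.2% and 21.2%.

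The libraries held 13737416 to 18725014 counts. Of these the members took 0.679% to 0.701% in the parental line, 0.584% to 0.607% in LIM1215-R1 and 0.626% to 0.638% in LIM1215-R2, with 127 to 6940 counts per member and library. Markers of colorectal epithelium were detected for 10 of 11 genes, with KRT20 at 0. They summed to 13190 to 13550 CPM in the parental line, 16540 to 16820 in LIM1215-R1 and 15000 to 15410 in LIM1215-R2, higher where the members' sum was lower; their part in the result was not tested. Markers of fibroblasts (4 of 5 detected, COL1A2 at 0), leukocytes (2 of 4, PTPRC and CD3E at 0) and endothelium (3 of 3) summed to at most 3.01, 0.434 and 0.722 CPM in any library. Beyond ZNF511, ZNF410 and ZNF263, 6 members share over 20% of their 75-base stretches with other genes' transcripts (ZNF23, ZNF324, ZNF395, ZNF512, ZNF564 and ZNF738), and their counts are uncertain.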

How the data were processed

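Raw counts per gene were deposited by the authors for the 9 libraries, 1 table each. Per the study's methods and the submitters' processing notes, reads had been aligned with STAR to human GRCh38 and counted with HTSeq 0.9.1. The gene annotation behind the counts is not given in the sources used here.

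From these counts, all genes that reached a sum of 10 counts across the 9 libraries were fitted together in edgeR 4.0.16 (R 4.3.3, limma 3.58.1) with TMM normalization and a two-sided quasi-likelihood test, Benjamini-Hochberg adjusted over all 19102 genes. CPM are counts scaled to the effective library size. DESeq2 1.42.0 was an alternative. The fits were tested on simulated data before use. Gene position, transcript length, GC content, protein patterns and shared 75-base stretches came from GENCODE release 44 on GRCh38. The KRAB pattern required 7 of 8 conserved positions. Depth, 13737416 to 18725014 counts per library, limits precision for members near 1800 counts.

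The members and lists were chosen with earlier results of these data known. Named members were the 10 with the largest called change in each comparison and those on the role lists. The 10 highest by CPM and those at the count limit were named too. Others are said to be named after their values were seen. Recomputing under alternatives covered only the 44 members with the largest called changes or on the role lists. List genes that are no members were fitted in the same way.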

Additional observations from a re-analysis of the deposited data

Results flagged for a closer look

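For 13 members the change against the shared parental libraries differed between LIM1215-R1 and LIM1215-R2 by edgeR's test of the difference, which is the direct comparison of the resistant lines. On the log2 scale, R2 stood above R1 for ZNF248 (0.52), ZNF133 (0.51), ZNF711 (0.46), ZNF215 (0.42), ZNF619 (0.39), ZNF91 (0.38), ZNF431 (0.35), ZNF12 (0.35), ZNF638 (0.31), ZNF148 (0.29) and ZNF800 (0.27). It stood below R1 for ZNF219 (-0.46) and ZNF598 (-0.24).

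ZNF800 lies outside the rule for named members and was added after its values were seen. It had 59.1, 54.4 and 55.6 CPM in the parental libraries, 59.0, 51.2 and 59.8 in LIM1215-R1 and 72.2, 67.7 and 65.3 in LIM1215-R2. LIM1215-R2 lay above both other lines, which overlapped, and the difference between R2 and R1 had an edgeR adjusted p of 0.00523.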

How the results depend on the processing

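Of the recomputed counts and medians, 212 stayed within 1.5 times the reported count or within the spread between libraries and 40 did not. Of the recomputed changes of 44 named members, 2137 kept their side of the threshold, 74 lost the call and 33 gained it. Of the 2137, 49 changed sign, each past the threshold in neither fit, and 0 called values changed sign. The cause of the shifts was not tested unless the alternative itself fixes it, as fewer members or a wider threshold do. With total counts alone as the scale, members higher in LIM1215-R2 were 7, R2 against R1 gave 18 higher and 1 lower, and the LIM1215-R1 median was -0.20. The members lower in R2 than in R1 were 4 with no filter on low counts and 1 with at least 10 counts in every library. At an adjusted p of at most 0.05, 51 members were lower in LIM1215-R2, and between the resistant lines 27 were higher and 6 lower. At a log2 fold change of at least 1, 2 members passed in LIM1215-R1 and 1 in LIM1215-R2. With the DESeq2 Wald test, ZNF711, ZNF619 and ZNF431 lost the call of R2 against R1, at DESeq2 adjusted p of 0.011, 0.0221 and 0.0106. ZNF830 lost its LIM1215-R1 call against parental with that test, at a DESeq2 adjusted p of 0.0263.

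With membership set at 900 counts, 21 were higher in R2 than in R1 and the LIM1215-R1 median was -0.20. At 3600 counts, LIM1215-R1 had 5 higher and 30 lower with a median of -0.13, LIM1215-R2 had 7 higher and 16 lower with a median of -0.057, and 7 were higher in R2 than in R1. After GC and length correction, chosen after seeing the data as was leaving out the 9 members with shared stretches, 53 were lower in LIM1215-R2 and 5 lower in R2 than in R1. With a replicate block, 24 members were higher and 4 lower in R2 than in R1, and ZNF92 passed in LIM1215-R2 at an edgeR adjusted p of 0.00129. Deviations of samples with the same number correlated from -0.195 to 0.611, with 0.43, 0.255 and 0.363 among the replicate 1 libraries. Whether the numbers pair the samples cannot be told from these values.

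Leaving out 1 library in turn, the LIM1215-R1 median ran from -0.20 to -0.14, members higher in LIM1215-R2 from 6 to 11, and members higher and lower in R2 against R1 from 2 to 19 and from 1 to 3. Without parental replicate 1 the higher in LIM1215-R2 were 7, and without LIM1215-R2 replicate 1 or 2 they were 6. Of the recomputed members called, 26 of 29 in LIM1215-R1, 15 of 18 in LIM1215-R2 and 2 of 12 between the resistant lines kept the call in all 9 omissions.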
